A study of Mus musculus with 48 samples.

Results

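Zbtb genes encode transcription factors that carry a BTB (POZ) domain at the amino-terminal end and C2H2 zinc fingers at the other. The zinc fingers read DNA, while the BTB domain pairs the protein with itself or with relatives and recruits corepressors such as NCoR, SMRT and BCOR, or the CUL3 ubiquitin ligase. Most studied members act as repressors, and several set lineage decisions in blood, brain and muscle. Members were chosen by name and by measured counts: every gene symbol made of Zbtb, a number and optional letters, with a mean of at least 10 raw counts over all libraries. The tables held 47480 gene symbols, 41 of them Zbtb symbols, and 38 of these were chosen. Zbtb16 with a mean of 0.0625 counts, Zbtb32 with 4.15 and Zbtb8b with 9.25 fell below the minimum, while the members nearest above it were Zbtb46 with 98.5 and Zbtb3 with 118. Zbtb8os fitted the naming rule only as the opposite-strand neighbour of Zbtb8a: it encodes archease, a cofactor of the tRNA ligase, and no zinc finger protein. All 38 members passed the filter on low counts in each stretch comparison.

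RNA-seq was performed on C2C12 cells, a mouse myoblast line that fuses into myotubes when growth factors are withdrawn. Undifferentiated cells (myoblasts) and cells after a period of differentiation (differentiated cells) were either stretched cyclically on a flexible, collagen-coated membrane for 1, 3 or 6 h or left non-stretched on the same kind of membrane for the same time. Each of the 12 groups held 4 libraries, 48 in all. All libraries come from this 1 cell line, the cells carried no engineered allele or drug, and the libraries of a group came from a few independent experiments with samples sharing an experiment, so p-values measure the spread between these samples. The labels call the molecule nuclear RNA, whereas the study describes extraction from whole cells.

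Total counts ran from 48447318 to 77080730 per library. The summed level of 6 markers of differentiated muscle (Myog, Myh3, Ckm, Tnnt1, Mef2c and Acta1) was 6.75 to 15.9 CPM (counts scaled to a total per library) in myoblast libraries and 9511 to 11750 CPM in differentiated libraries. The 5 markers of undifferentiated cells (Pax7, Myf5, Mki67, Ccnb1 and Id3) summed to 864 to 1105 CPM in myoblasts. After differentiation their sum was still 163 to 376 CPM. Mki67 made the largest part of the sum at both stages. Mean levels of Myf5, Mki67, Ccnb1 and Id3 were lower after differentiation. Pax7 was not lower, with 32.65 ± 2.99 CPM (mean and SD) after differentiation against 26.92 ± 2.11 CPM before it. The sum of 3 fibroblast markers was 5.2 to 8.15 CPM in myoblasts and 8.24 to 15.9 CPM in differentiated cells, almost all of it Pdgfra; of the 2 blood cell markers, Adgre1 was at 0 in every library and Ptprc reached at most 0.117 CPM, and the 2 neuronal markers summed to at most 0.0357 CPM. Of 4 known stretch-responsive genes (Fos, Egr1, Cyr61 and Ctgf), 4 were upregulated in myoblasts at 1 h and 2 in differentiated cells at 1 h. There Egr1 and Ctgf spread widely with stretch (530 ± 287 and 427 ± 371 CPM, mean and SD) and did not pass. At an adjusted p under 0.05 in edgeR, 1 rose and 1 fell in myoblasts at 3 h, and 3 fell at 6 h. In differentiated cells 2 rose and 1 fell at 3 h, and 2 fell at 6 h. The shares of all genes are given with each comparison below. One stretched differentiated 1 h library, replicate 4, was the only library of its experiment. In bulk RNA, fewer cells that express a gene and less RNA per cell cannot be told apart.

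The promoters below belong to members that led the early fall (Zbtb26, Zbtb34 and Zbtb37) and the fall at 3 h (Zbtb4), and to Zbtb11, 1 of the members that rose at 6 h in both stages. Each is the stretch of 250 bases just before a RefSeq transcription start on GRCm38 (mm10), written 5′ to 3′ along the gene. Capitals mark matches on either strand to the GC box (GGGCGG), the CCAAT box (CCAAT), the cyclic AMP response element (CRE, TGACGTCA), and the motif TCCTGCNA of Kaiso, the protein of Zbtb33. Zbtb26 is shown at chr2:37443173-37443422 on the minus strand, Zbtb34 at chr2:33431325-33431574 on the minus strand, Zbtb37 at chr1:161034850-161035099 on the minus strand, Zbtb4 at chr11:69765662-69765911 on the plus strand and Zbtb11 at chr16:55973554-55973803 on the plus strand.
Zbtb26: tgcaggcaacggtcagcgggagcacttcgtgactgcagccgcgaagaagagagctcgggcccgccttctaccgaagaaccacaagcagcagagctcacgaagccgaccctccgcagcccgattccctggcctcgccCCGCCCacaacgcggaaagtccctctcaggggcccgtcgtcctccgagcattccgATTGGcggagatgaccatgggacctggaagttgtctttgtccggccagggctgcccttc
Zbtb34: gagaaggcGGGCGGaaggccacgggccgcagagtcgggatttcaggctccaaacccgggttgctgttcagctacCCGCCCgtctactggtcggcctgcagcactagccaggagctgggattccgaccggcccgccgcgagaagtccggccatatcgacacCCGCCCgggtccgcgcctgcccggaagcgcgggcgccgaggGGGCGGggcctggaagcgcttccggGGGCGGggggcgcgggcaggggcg
Zbtb37: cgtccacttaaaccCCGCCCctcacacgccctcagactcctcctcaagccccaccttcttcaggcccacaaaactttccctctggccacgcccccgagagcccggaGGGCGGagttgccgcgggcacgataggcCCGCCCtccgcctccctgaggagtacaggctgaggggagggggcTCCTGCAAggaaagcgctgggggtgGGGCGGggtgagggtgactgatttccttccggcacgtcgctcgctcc
Zbtb4: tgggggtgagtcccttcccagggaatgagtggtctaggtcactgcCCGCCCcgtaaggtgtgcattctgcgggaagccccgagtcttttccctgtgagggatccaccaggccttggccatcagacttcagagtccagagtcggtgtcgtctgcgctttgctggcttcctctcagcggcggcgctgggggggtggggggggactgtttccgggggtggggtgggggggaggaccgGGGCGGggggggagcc
Zbtb11: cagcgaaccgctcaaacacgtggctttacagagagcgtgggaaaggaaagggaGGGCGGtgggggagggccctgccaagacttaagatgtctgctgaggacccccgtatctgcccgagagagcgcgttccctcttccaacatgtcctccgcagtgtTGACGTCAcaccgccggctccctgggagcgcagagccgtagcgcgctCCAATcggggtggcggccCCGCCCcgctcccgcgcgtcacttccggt

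RefSeq windows were found for 34 of the 38 members, 46 windows in all, with a median GC content of 64.8% against 52.4% over all 32851 windows. The GC box, the site read by Sp factors, was present in 29 of the 46 windows, and in 32.7% of all windows. The CRE was found in 1 member window, that of Zbtb11, and in 1.55% of all windows. The AP-1 site (TGANTCA), bound by Fos and Jun proteins, was found in 1 member window, that of Zbtb46, against 6.75% of all windows. No member window held the CArG box of serum response factor, which stood in 1.47% of all. The Kaiso motif was present in 4 member windows, those of Zbtb18 and Zbtb37, and in 4.03% of all windows. The Zbtb18 windows at chr1:177444403-177444652 and chr1:177444411-177444660 overlap and hold the same site, which was counted in both. Windows of one gene can overlap for the other motifs too. The CCAAT box stood in 12 member windows, Zbtb26 and Zbtb11 among them, and in 33.8% of all. Some matches to the CArG box can hold a CCAAT box, so the searched motifs are not fully separate. A match is a description of the sequence only.

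**Figure D1:**
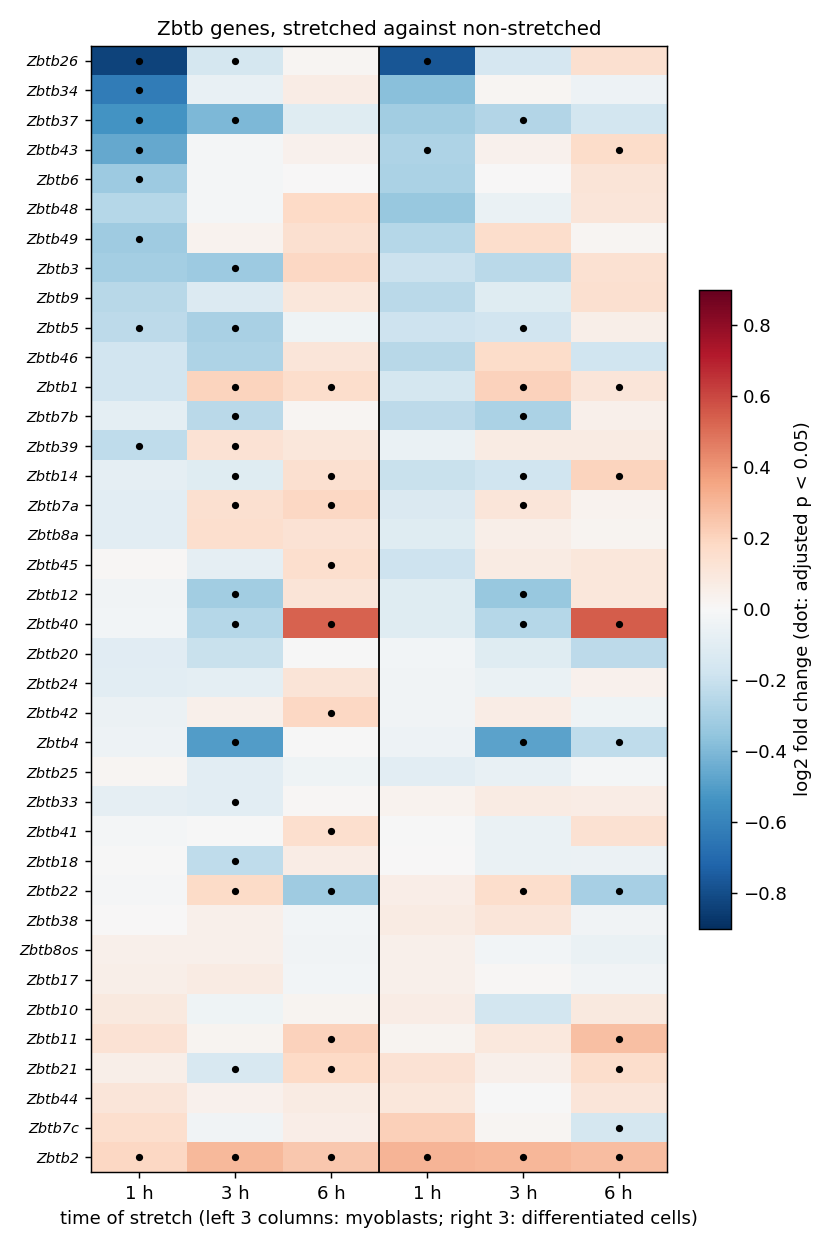
Colour gives the log2 fold change, stretched against non-stretched, of each of the 38 Zbtb genes (rows, ordered by their mean change at 1 h) at 3 times in myoblasts (left) and differentiated cells (right), and dots mark an adjusted p under 0.05. Zbtb26 was lowest at 1 h in both stages, Zbtb4 at 3 h, and Zbtb40 was highest at 6 h, while Zbtb2 was higher in all 6 comparisons.

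The first question was which members changed with stretch at each time. After 1 h in myoblasts, 2 of 38 members, Zbtb26 and Zbtb34, passed both limits of the study (an adjusted p under 0.05 and an absolute log2 fold change of at least 0.58), both downregulated, where 1.25% of all genes tested passed. At the adjusted p alone, 8 members fell, against 4.24% of all genes, and 1 rose, against 1.67%. In differentiated cells at 1 h, 1 member, Zbtb26, passed both limits, against 0.27% of all genes, and at the adjusted p alone 2 fell against 0.47% and 1 rose against 0.193%. The median log2 fold change of the members at 1 h was −0.08 in myoblasts and −0.1 in differentiated cells, and 27 and 26 of the 38 values were negative, whereas the medians over all genes were 0.002 and 0. With the lone replicate 4 left out of the stretched group in differentiated cells, 4 members fell and Zbtb26 was still the 1 member past both limits, and a model over all 24 libraries of the stage gave 10 that fell. The share of all genes was not counted in these other fits, so their counts cannot be set beside the 0.47%.

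Zbtb26, a little-studied member with a Zbtb6 neighbour, showed the largest change. In non-stretched myoblasts at 1 h it stood at 10.1, 9.07, 11.5 and 9.83 CPM, and in stretched myoblasts at 6.5, 5.58, 5.43 and 5.26 CPM. All stretched libraries were below all non-stretched ones, and the level fell by 43.9% (log2 fold change −0.83 ± 0.086 (SE), adjusted p = 0.00022). In differentiated cells the non-stretched libraries held 14.1, 12.1, 12.5 and 11.4 CPM and the stretched libraries 6.94, 7.2, 6.82 and 8.33 CPM. Again no library overlapped, and Zbtb26 fell by 41.5% (log2 fold change −0.77 ± 0.0891, adjusted p = 0.00854). The adjusted p stayed under 0.05 without any single library, reaching 0.0487 without non-stretched differentiated replicate 9. Within experiments the log2 difference was −0.67 and −0.99 in myoblasts and −0.9 and −0.52 in differentiated cells, where the last value rests on 1 stretched library. At 3 h Zbtb26 was lower by 0.16 on the log2 scale in myoblasts (adjusted p = 0.0333; 0.105 without non-stretched replicate 8), and at 6 h its means were 9.83 CPM non-stretched and 9.81 CPM stretched.

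Zbtb6, the neighbour of Zbtb26, forms a pair with it on chromosome 2. Zbtb6 (chr2:37425500-37443171) and Zbtb26 (chr2:37432168-37443135) lie on the minus strand and overlap, and 11.4% of the exon 31-base words of Zbtb6 and 6.03% of those of Zbtb26 occur in another gene, so that reads in the shared part cannot be assigned to one gene alone. Non-stretched myoblasts at 1 h held 35.9, 33.4, 37.5 and 34 CPM of Zbtb6 and stretched myoblasts 29.2, 27, 27.8 and 28.5 CPM. The groups did not overlap, and Zbtb6 fell by 0.33 on the log2 scale (adjusted p = 0.000901). In differentiated cells the difference was −0.28 with an adjusted p of 0.0509, and again every stretched library lay below every non-stretched one.

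A second pair of members lies on the same chromosome, Zbtb34 (chr2:33406108-33431324) and Zbtb43 (chr2:33450287-33468559), both on the minus strand with a gap of 19 kb. Zbtb34 stood at 13.9, 12.4, 13.8 and 13.3 CPM in non-stretched and at 8.44, 8.65, 8.92 and 8.54 CPM in stretched myoblasts at 1 h. It fell by 35.3% with no overlap (log2 fold change −0.63 ± 0.0522, adjusted p = 5.87e-05), with within-experiment differences of −0.62 and −0.63. In differentiated cells the Zbtb34 values were 16.5, 16.8, 16.2 and 14.9 CPM against 10.8, 12.9, 13 and 12.9 CPM, a log2 difference of −0.38 with an adjusted p of 0.0536. Zbtb43 went from 29.4, 28, 29.9 and 29.6 CPM to 21.1, 21.9, 20.9 and 20.9 CPM in myoblasts, a log2 fold change of −0.46 ± 0.0366 (adjusted p = 4.86e-05). It also fell in differentiated cells, by 0.28 (adjusted p = 0.0303; 0.14 without non-stretched replicate 7). Of 8 genes flanking the 2 pairs, 7 were tested, and 1 of them, Rc3h2, fell at 1 h in myoblasts (log2 fold change −0.22, adjusted p = 0.0166) and none in differentiated cells.

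Zbtb37, Zbtb49, Zbtb5 and Zbtb39 completed the members that fell in myoblasts at 1 h. Zbtb37 read 22.8, 22.9, 28.7 and 25.2 CPM in non-stretched and 14.8, 20.4, 16.6 and 16.8 CPM in stretched myoblasts. The groups did not overlap despite a wide spread, and the log2 fold change was −0.54 ± 0.0986 (adjusted p = 0.00814). Of the exon 31-base words of Zbtb37, 17.6% occur in another gene, as do 17.4% of those of Zbtb5, 18.1% of those of Zbtb14 and 84.3% of those of Zbtb9, so that counts of these members are less certain. The same limit holds for Zbtb8os (23.2%), Zbtb8a (16.4%), Zbtb11 (11.85%) and Zbtb2 (10%). In differentiated cells at 1 h the Zbtb37 groups overlapped, with a log2 difference of −0.32 and an adjusted p of 0.475. Zbtb49 fell by 0.32 (adjusted p = 0.0109), Zbtb5, a repressor of the cell cycle inhibitor gene Cdkn1a, by 0.24 (0.00595) and Zbtb39 by 0.23 (0.00352).

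Zbtb2, which represses genes of the p53 pathway and binds unmethylated CpG-rich promoters, was the member that moved the other way. Non-stretched myoblasts at 1 h held 25.8, 25.1, 25 and 24.5 CPM and stretched myoblasts 30, 27.9, 28.3 and 28.2 CPM. All stretched libraries were higher, by 0.19 ± 0.0348 on the log2 scale (adjusted p = 0.00936). In differentiated cells it rose by 0.3 ± 0.0561 (adjusted p = 0.0471, and 0.19 without non-stretched replicate 7). That adjusted p was above 0.05 in 7 of 15 alternative fits. Zbtb2 was the 1 member that passed the adjusted p in all 6 comparisons, always higher in stretched cells, by 0.29 and 0.3 at 3 h and by 0.24 and 0.27 at 6 h in myoblasts and differentiated cells. The share of all genes that passed in all 6 was not counted, so whether this is particular to Zbtb2 was not tested.

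**Figure D2:**
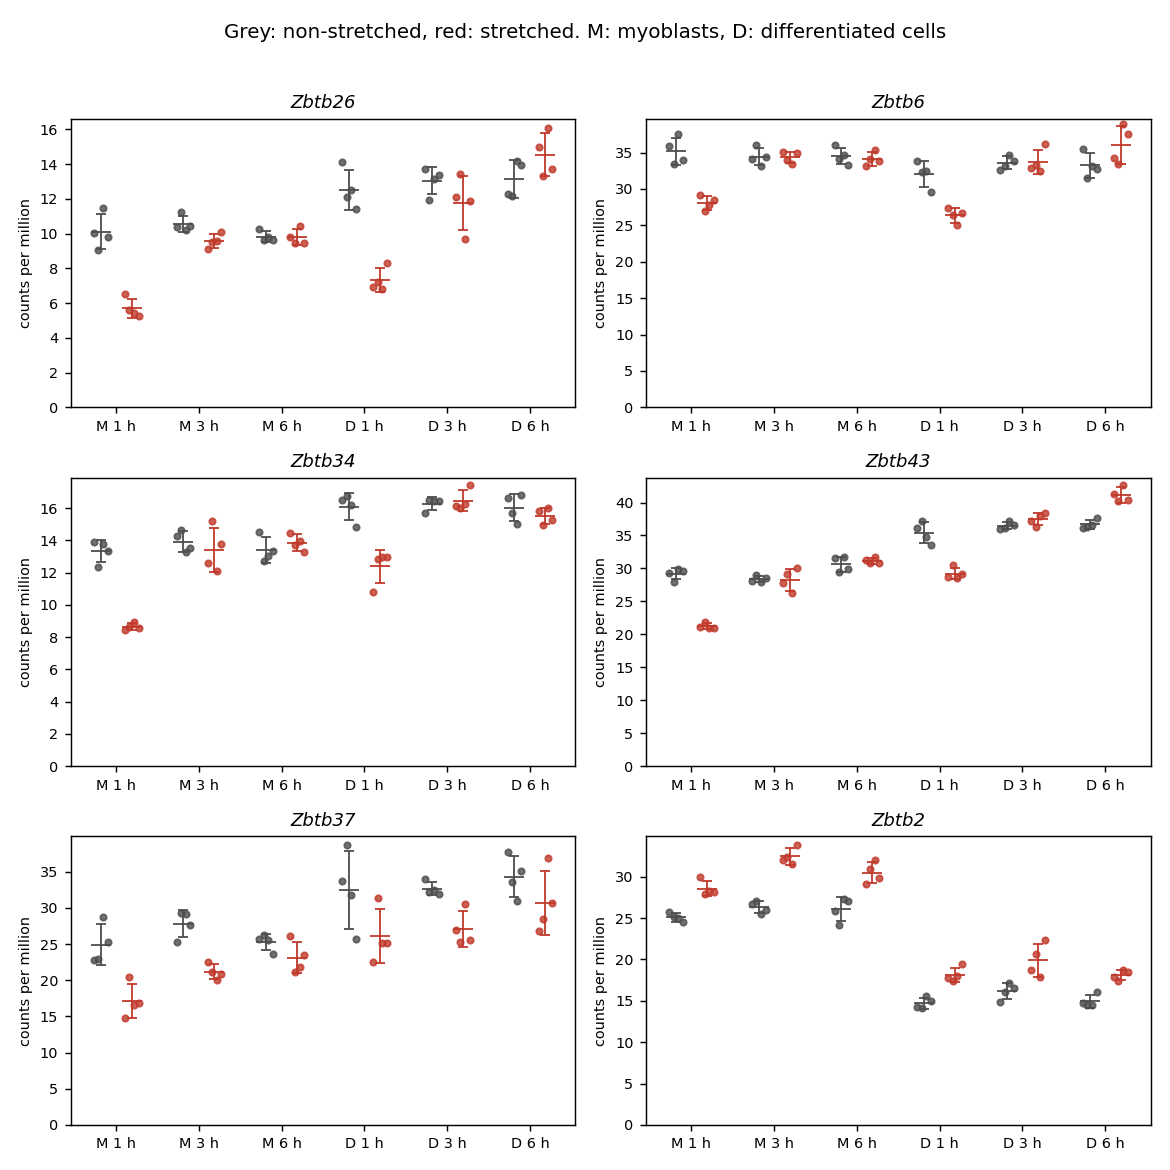
Each point is the level in CPM of 1 library, with the mean and SD of 4 libraries, for 6 Zbtb genes at 1, 3 and 6 h in myoblasts (M) and differentiated cells (D). Stretched cells (red) lay below non-stretched cells (grey) at 1 h for Zbtb26, Zbtb6, Zbtb34 and Zbtb43 in both stages, and above them for Zbtb2 at each time.

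At 3 h no member passed both limits, where 1.71% of all genes in myoblasts and 1.63% in differentiated cells did, and DESeq2 also called 0 in each stage. At an unadjusted p under 0.05, 19 and 16 members differed. The share of all genes at that limit was not counted, so these counts cannot be read as particular to the members. By the adjusted p of edgeR alone, 12 members fell in myoblasts against 15.8% of all genes and 5 rose against 16%. In differentiated cells 7 fell against 11.4% of all genes and 4 rose against 10.8%. The 7 that fell in differentiated cells also fell in myoblasts at 3 h, where 8.02% of all genes fell in both stages, and the 4 that rose also rose in myoblasts, where 7.59% of all genes rose in both. The summed fibroblast markers were 7.54 to 8.15 CPM in non-stretched and 6.04 to 7.38 CPM in stretched myoblasts at 3 h, and their part in these results was not tested.

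Zbtb4, a relative of Kaiso that binds methylated CpG sites and represses Cdkn1a, fell the most at 3 h. In myoblasts it read 38.7, 39.8, 39.6 and 40.6 CPM without and 28.6, 29.3, 27.8 and 27 CPM with stretch. The level fell by 29.6% (log2 fold change −0.51 ± 0.0326, adjusted p = 8.76e-07). In differentiated cells the values were 82.6, 81.4, 77.1 and 79.7 CPM without and 55.6, 57.6, 60 and 56.5 CPM with stretch, a fall of 0.48 ± 0.0327 on the log2 scale (adjusted p = 3.75e-05). No library of one group overlapped with the other in either stage, and within experiments the differences were −0.44 and −0.55 in myoblasts and −0.53 and −0.43 in differentiated cells. At 1 h Zbtb4 means were 35.6 and 34.5 CPM in myoblasts and 77.1 and 74.9 CPM in differentiated cells, non-stretched and stretched, so that the difference was not detectable there.

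Other members fell at 3 h by less. Zbtb37 fell by 0.41 in myoblasts (adjusted p = 7.98e-05) and by 0.26 in differentiated cells (0.00803). Zbtb12, a gene of the major histocompatibility region, read 16.8, 17.6, 15.9 and 17.8 CPM in non-stretched and 13.5, 14.3, 13.9 and 13.4 CPM in stretched myoblasts, and fell by 0.31 (adjusted p = 0.000173) and in differentiated cells by 0.34 (0.00127). Zbtb7b, known as ThPOK for its part in the choice of CD4 T cells, fell by 0.25 (0.000635) and 0.28 (0.00184). Zbtb40 fell by 0.25 (0.00196) and 0.26 (0.00806), Zbtb5 by 0.29 (0.000109) and 0.17 (0.0063), and Zbtb14 by 0.11 (0.0293) and 0.18 (0.0297). Zbtb18, Zbtb21, Zbtb33, Zbtb3 and Zbtb26 fell in myoblasts by 0.1 to 0.33, where Zbtb3 had only 2.02 CPM or less in every library of the comparison and an adjusted p of 0.038 that became 0.0861 with DESeq2. Zbtb2, Zbtb1, Zbtb22 and Zbtb7a rose in both stages, Zbtb1, which is needed for lymphocyte development, by 0.2 in myoblasts (adjusted p = 0.000397) and 0.21 in differentiated cells (0.00138).

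At 6 h no member passed both limits, against 2.17% of all genes in myoblasts and 2.04% in differentiated cells, and DESeq2 again called 0. An unadjusted p under 0.05 was found for 14 and 11 members, again without a count of the share of all genes. By the adjusted p alone, 10 members rose in myoblasts against 14.1% of all genes and 1 fell against 13%. In differentiated cells 7 rose against 11.5% and 3 fell against 10.8%. The members' median log2 fold change was 0.089 in myoblasts, with 29 of 38 positive, and 0.057 in differentiated cells, with 25 of 38 positive. At this time the summed fibroblast markers were lower in every stretched library, at 5.2 to 5.79 CPM against 6.52 to 7.4 CPM in myoblasts and at 8.24 to 9.71 CPM against 11.9 to 15.9 CPM in differentiated cells. The summed muscle markers of differentiated cells stood at 9578 to 10430 CPM with stretch and 10470 to 11100 CPM without, also with no overlap. The part of these shifts in the 6 h results was not tested.

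Zbtb40, named in human studies of bone density, rose the most at 6 h. In myoblasts the values were 21.7, 20, 19.9 and 20.3 CPM without and 33, 25.9, 31.1 and 26.5 CPM with stretch. Stretched libraries were all higher but spread widely, and the rise was 44.3% (log2 fold change 0.53 ± 0.0765, adjusted p = 0.000702). In differentiated cells they were 20, 20.3, 18.2 and 20.3 CPM against 32, 26.8, 32.9 and 23.5 CPM, a rise of 45.9% (log2 fold change 0.54 ± 0.0944, adjusted p = 0.00334). Within experiments the differences were 0.49 and 0.51 in myoblasts and 0.54 and 0.53 in differentiated cells. Zbtb40 thus fell at 3 h and rose at 6 h in both stages, and the fold limit was passed at 6 h without stretched replicate 8 in myoblasts and without stretched replicate 10 in differentiated cells, where 1 member was called.

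Zbtb22, a gene of the major histocompatibility region, took the opposite course. It was higher at 3 h, by 0.17 in myoblasts (adjusted p = 0.00241) and 0.16 in differentiated cells (0.0184; 0.0617 without stretched replicate 7). At 6 h non-stretched myoblasts held 37.1, 34.4, 33.9 and 33.9 CPM and stretched myoblasts 25.8, 29.1, 26.3 and 29.4 CPM, with no overlap. It fell by 0.32 ± 0.0481 (adjusted p = 0.000903) there and by 0.3 ± 0.0403 in differentiated cells (0.00108), where the values were 38.6, 37.9, 38 and 36.8 CPM against 30.2, 31.4, 29 and 32.5 CPM.

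Zbtb11, a gene needed for cell survival in many tissues whose promoter window held the CRE, rose at 6 h by 0.21 ± 0.0352 in myoblasts (adjusted p = 0.00178) and 0.27 ± 0.0417 in differentiated cells (0.00199). Zbtb14, Zbtb21 and Zbtb1 rose at 6 h in both stages, by 0.11 to 0.2. Zbtb7a, the repressor LRF, rose by 0.19 in myoblasts (0.00114), and Zbtb41, Zbtb42 and Zbtb45 rose there by 0.15 to 0.19. Zbtb43, which had fallen at 1 h, rose by 0.16 in differentiated cells at 6 h (0.00654), where Zbtb4 fell by 0.23 (0.00207) and Zbtb7c by 0.16 (0.0128). Several of these small rises did not outlast the loss of 1 library: the adjusted p of Zbtb1 at 6 h in differentiated cells went from 0.0474 to 0.115 and that of Zbtb21 from 0.0474 to 0.111 without non-stretched replicate 10.

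**Figure D3:**
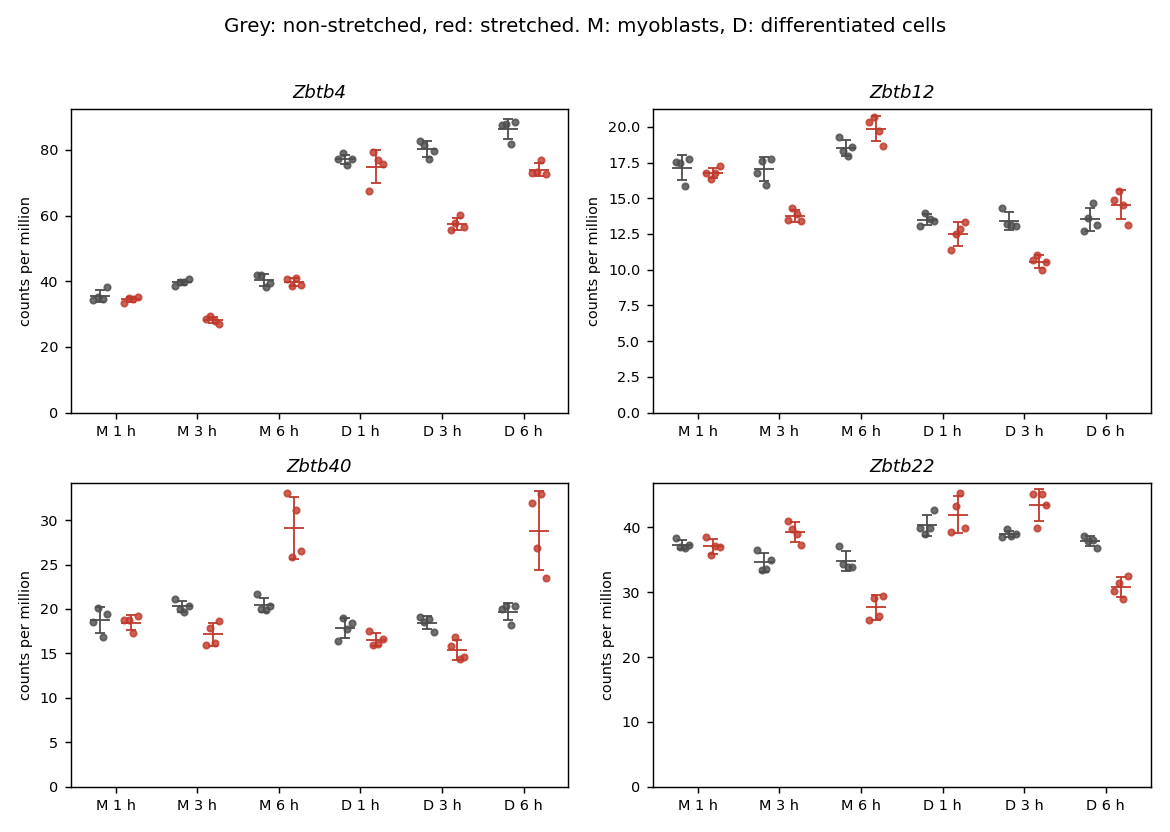
Points are the level in CPM of each library, with the mean and SD of 4 libraries, for Zbtb4, Zbtb12, Zbtb40 and Zbtb22 in myoblasts (M) and differentiated cells (D). Stretched cells (red) lay below non-stretched cells (grey) at 3 h for Zbtb4 and Zbtb12, and at 6 h Zbtb40 lay above and Zbtb22 below them in both stages.

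Whether the response changed with time was tested as a difference between stretch effects. In myoblasts the 3 h effect differed from the 1 h effect for 14 members (10.9% of all genes). The 6 h effect differed from the 1 h effect for 19 (21.1%) and from the 3 h effect for 14 (26.5%). In differentiated cells the counts for the same contrasts were 8 (5.15%), 15 (11.9%) and 8 (12%). Most of these differences at 6 h against 1 h were positive: 18 of the 19 in myoblasts and 12 of the 15 in differentiated cells. The direction was not counted over all genes, so whether this is particular to the members was not tested. The Zbtb26 effect at 6 h exceeded that at 1 h by 0.85 ± 0.0933 in myoblasts (adjusted p = 6.32e-07) and by 0.91 ± 0.129 in differentiated cells (9.76e-05), and that of Zbtb34 by 0.69 ± 0.0837 in myoblasts (2.36e-06). The Zbtb40 effect at 6 h exceeded that at 3 h by 0.79 ± 0.0984 in myoblasts (2.87e-06) and 0.81 ± 0.113 in differentiated cells (9.65e-05), while the Zbtb22 effect was lower by 0.48 (1.31e-06) and 0.46 (0.000107). The effects on Zbtb4 at 6 h and 3 h differed by 0.51 in myoblasts (4.51e-07) and by 0.26 in differentiated cells (0.00456).

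Counted over all 6 comparisons, 26 of the 38 members passed the adjusted p at least once, against 61.7% of the 14006 genes tested in all 6, and 12 in none. Of the 26, 13 were only ever lower (27.7% of all genes), 7 only ever higher (24.9%), and 6 moved both ways at different times (9.09%). Among the 12 were Zbtb17, the gene of Miz1, a partner of Myc, and Zbtb10 and Zbtb48, whose proteins bind telomere repeats. The wide spread of Zbtb20, a repressor known in liver and hippocampus, limited what could be seen: its non-stretched differentiated libraries at 1 h read 497, 680, 423 and 313 CPM and its stretched libraries 476, 633, 435 and 336 CPM.

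The response was then compared between myoblasts and differentiated cells, which share no libraries. Across the 38 members the log2 fold changes of the 2 stages had a Pearson correlation of 0.89, 0.816 and 0.751 for the 1, 3 and 6 h comparisons, and of 0.442, 0.511 and 0.406 across all genes tested in both. The Spearman (rank) correlation was 0.867, 0.741 and 0.584 for the members and 0.404, 0.585 and 0.458 for all genes. Genes are not independent replicates, members with overlapping exons are among them, and the values are a description. All genes were not matched to the members in count level, here or for the shared direction. The lowest mean of a member was 98.5 counts, so whether these differences are particular to the members was not tested. The direction was shared by 33, 28 and 32 of 38 members, or 86.8%, 73.7% and 84.2% of them, against 66.2%, 74% and 67.1% of all genes, so that the share at 3 h was no higher than over all genes. No member passed the adjusted p in opposite directions at the same time. At 1 h, 2 members fell in both stages (Zbtb26 and Zbtb43), against 0.44% of all genes, and 1 rose in both (Zbtb2), against 0.168%. At 6 h, 6 rose in both, against 6.33% of all genes, and 1 (Zbtb22) fell in both, against 4.68%.

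**Figure D4:**
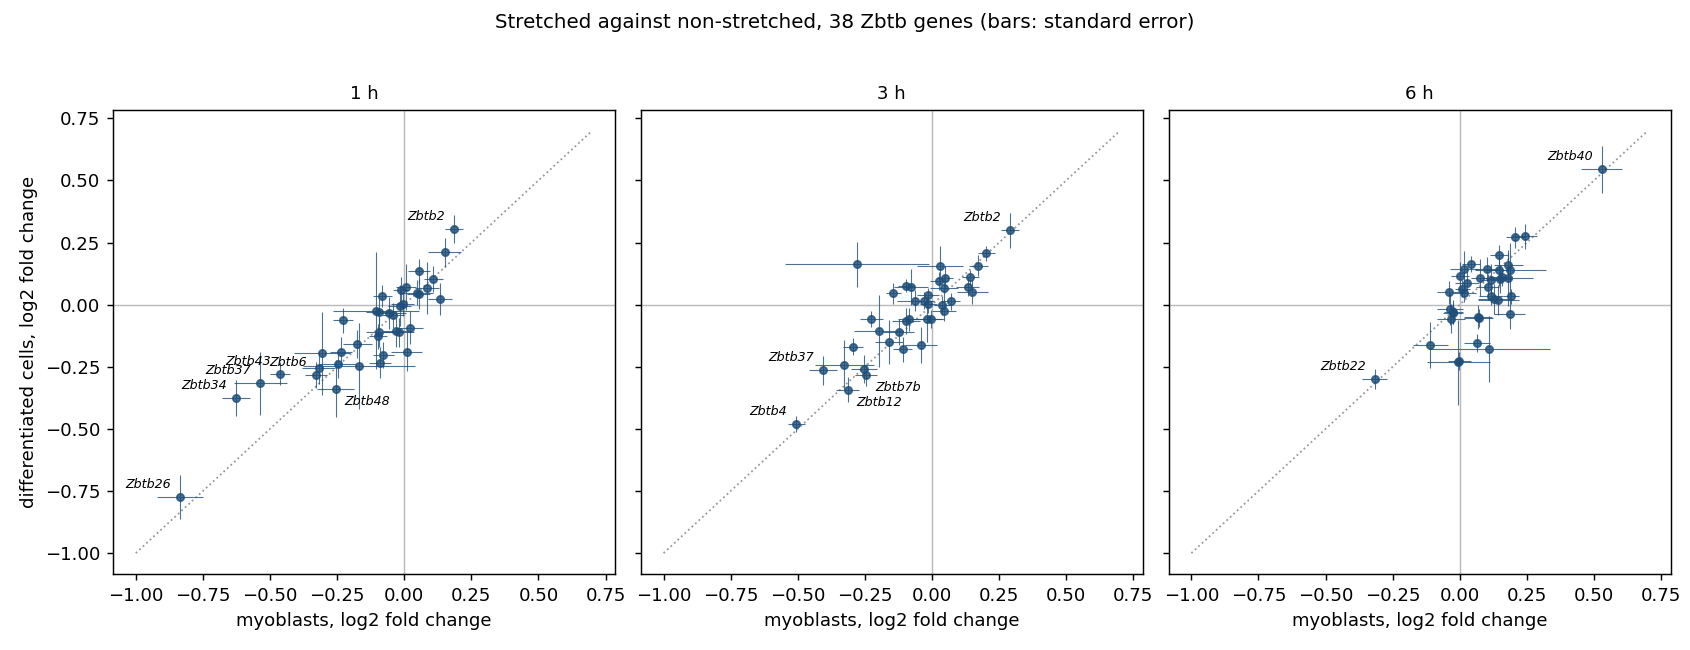
Each point is 1 of 38 Zbtb genes, with its log2 fold change (stretched against non-stretched) in myoblasts on the x axis, that in differentiated cells on the y axis, and standard errors as bars, for 1, 3 and 6 h. The dotted line marks equal change, and 33, 28 and 32 of the 38 points had the same sign in both stages at 1, 3 and 6 h. Zbtb26 lay near the line at −0.83 and −0.77 at 1 h, as did Zbtb40 at 0.53 and 0.54 at 6 h.

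A test of the difference between stages found 0 members at 1 h, where the edgeR fit also called 0% of all genes, and 3 members and 705 of 16299 genes had an unadjusted p under 0.05. At 3 h it found 1 member (1.79% of all genes), Zbtb33, the gene of Kaiso. Zbtb33 fell by 0.1 in myoblasts and stood at 0.08 in differentiated cells, a difference of 0.17 ± 0.0383 (adjusted p = 0.0294), and without non-stretched myoblast replicate 8 the adjusted p was 0.0797. At 6 h it found 3 (5.18% of all genes): Zbtb4 (−0.23 ± 0.0536, adjusted p = 0.0206), Zbtb7a (−0.16 ± 0.0386, 0.0226) and Zbtb7c (−0.23 ± 0.0617, 0.0432), each lower in differentiated cells. These adjusted p values reached 0.0583 and 0.0979 without non-stretched myoblast replicate 9, and 0.138 for Zbtb7c without replicate 7.

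Levels without stretch were also compared between the stages. Of 38 members, 5 were higher in differentiated cells by both limits, against 26.4% of all genes, and 2 were lower, against 24.1%. Stage and experiment cannot be told apart here. Zbtb18, also called RP58, a repressor of Id genes in muscle and neuron differentiation, had 39 CPM at the lowest, 41.8 at the median and 45.8 at the highest of 12 myoblast libraries and 178, 182 and 197 CPM in differentiated cells. It was 4.28-fold higher (log2 fold change 2.1 ± 0.0239, adjusted p = 9.04e-33). Zbtb46, a marker of dendritic cells, went from 0.273, 0.607 and 0.779 CPM to 2.24, 2.78 and 3.28 CPM (4.75-fold, log2 fold change 2.25 ± 0.112, adjusted p = 2.78e-17). The remaining members that rose were Zbtb20 (log2 fold change 1.51 ± 0.118), Zbtb4 (1.05 ± 0.0358) and Zbtb7c (0.95 ± 0.0279), and for each the lowest differentiated library was above the highest myoblast library.

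The 2 members lower in differentiated cells were Zbtb45 and Zbtb2. Zbtb45 read 14.5, 17.8 and 18.8 CPM at the lowest, median and highest in myoblasts and 8.14, 9.69 and 10.9 CPM in differentiated cells (log2 fold change −0.88 ± 0.0402, adjusted p = 3.28e-18). Zbtb2 read 24.1, 25.8 and 27.4 CPM against 14.2, 14.9 and 17.2 CPM (−0.79 ± 0.0305, adjusted p = 5.78e-20), so that Zbtb2 was lower in differentiated cells but rose with stretch in both stages. Zbtb38, a methyl-CpG reader, was just under the fold limit at −0.58 ± 0.0229. Per kb of exon, the members with the highest level in myoblasts were Zbtb7a (20.1 CPM per kb), Zbtb38 (13.5) and Zbtb22 (13.3), of which the last pair were within their spread of each other. In differentiated cells Zbtb18 (29.9 CPM per kb), Zbtb7a (25.6) and Zbtb20 (17.4) were highest, and Zbtb20, with an SD of 4.22 CPM per kb, did not stand apart from Zbtb22 (14.6) beyond its spread. Zbtb46 was lowest in both, with 0.0668 and 0.325 CPM per kb, followed by Zbtb49 and Zbtb3.

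**Figure D5:**
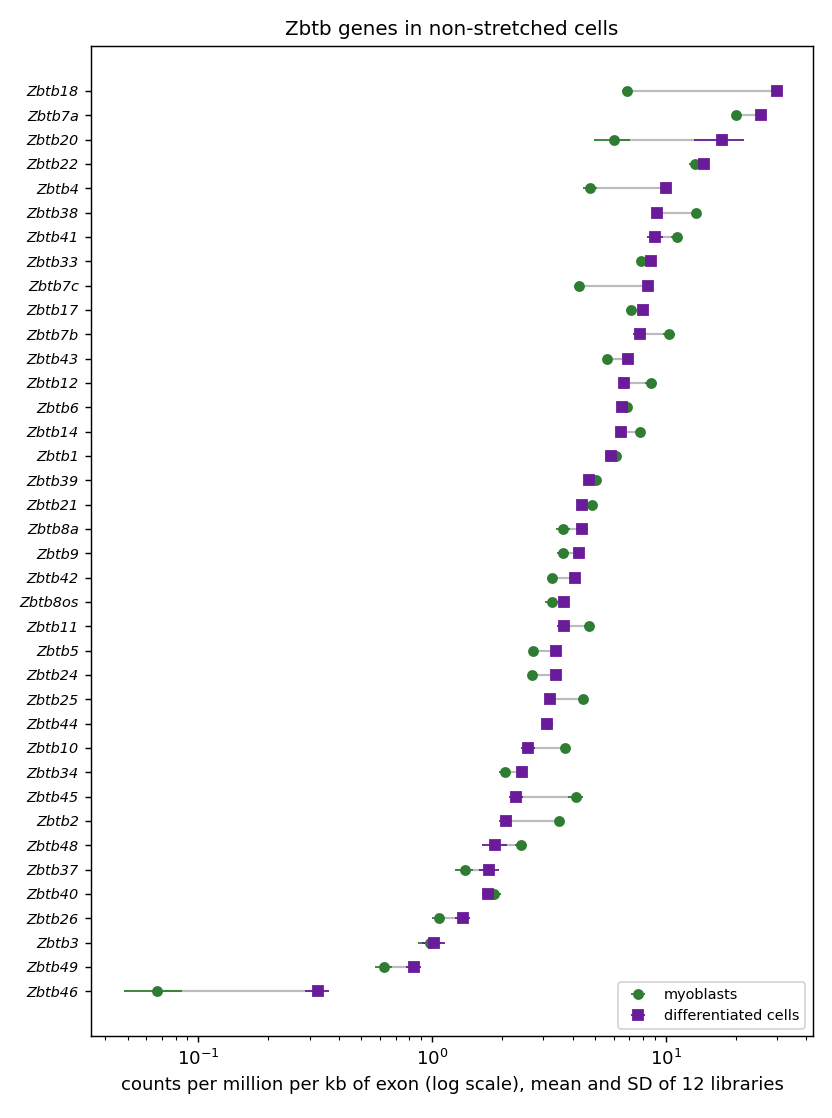
Levels of the 38 Zbtb genes in non-stretched myoblasts (green circles) and differentiated cells (purple squares), as CPM per kb of exon on a log axis, mean and SD of 12 libraries each. Zbtb18 moved from 6.86 to 29.9 CPM per kb and was the highest member in differentiated cells, and Zbtb46 was lowest in both stages.

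By role, the readers of methylated DNA did not move together: Zbtb4 fell at 3 h in both stages and Zbtb33 in myoblasts, while Zbtb38 passed the test in no comparison. In the Zbtb7 family at 3 h, Zbtb7a rose and Zbtb7b fell in both stages. The group of close relatives or chromosome neighbours (Zbtb6, Zbtb26, Zbtb34, Zbtb43, Zbtb37, Zbtb8a, Zbtb8b and Zbtb8os) was listed with these results known. Its counts therefore describe the list and are no test of it. The list leaves out a further pair of neighbours, Zbtb25 and Zbtb1 on chromosome 12, with a gap of 0.664 kb. Neither of that pair fell past the adjusted p in any comparison. In the group as listed, 5 of 7 tested fell in myoblasts at 1 h, with a median of −0.46, against 4.24% of all genes. In differentiated cells 2 of 8 fell at 1 h, with a median of −0.3, against 0.47% of all genes. Zbtb8a and Zbtb8os passed in no comparison. In the group for development and muscle, Zbtb18 fell at 3 h and Zbtb42, expressed at the neuromuscular junction, rose at 6 h, both in myoblasts.

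Other BTB zinc finger genes outside the naming rule numbered 8, with 7 tested. In myoblasts 1 fell at 1 h, 2 rose at 3 h and 1 rose at 6 h, and in differentiated cells 1 rose and 2 fell at 3 h and 1 rose at 6 h. Of all genes in myoblasts, 1.67% rose and 4.24% fell at 1 h, 16% and 15.8% at 3 h, and 14.1% and 13% at 6 h. In differentiated cells these shares were 0.193% and 0.47%, 10.8% and 11.4%, and 11.5% and 10.8%. Bcl6b fell in myoblasts at 1 h (log2 fold change −0.45, adjusted p = 0.00346), and Zfp131 rose at 3 h in both stages (0.27 and 0.32). Bcl6, a repressor that shapes germinal centre B cells, rose at 3 h in myoblasts (0.16, adjusted p = 0.0119) and fell in differentiated cells (−0.25, 0.0226). Of 14 corepressors and CUL3 partners, 1 fell in myoblasts and 0 moved in differentiated cells at 1 h, 5 rose and 3 fell in myoblasts and 3 rose and 5 fell in differentiated cells at 3 h, and 4 fell in myoblasts and 2 rose and 1 fell in differentiated cells at 6 h. The shares of all genes just given apply to this list too, and neither list was tested as a set. Cul3, the scaffold of the ligase, rose at 3 h in both (0.18 and 0.1), and Bcor, a corepressor of Bcl6, fell at 6 h in both (−0.19 and −0.22).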

How the data were processed

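Counts per gene were deposited by the authors as 2 tables of raw whole-number counts, 1 per stage, 24 libraries each. Reads had been aligned to the mm10 mouse genome and transcriptome with STAR, and expression quantified with Salmon; how its estimates became whole numbers is not given in the sources used here. No column was left out (0 columns of other samples). Strand-specific mRNA libraries were sequenced in pairs. Total counts were 48447318 to 77080730 per library, and CPM values are on one scale over all 48 libraries (TMM).

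Each comparison used edgeR 4.0.16 (R 4.3.3) with filterByExpr, TMM and the quasi-likelihood test on 4 stretched and 4 non-stretched libraries, with Benjamini-Hochberg adjustment over all genes tested. This was in place of DESeq2, the study's tool, which was run as an alternative (version 1.42.0). A call needed an adjusted p under 0.05 and an absolute log2 fold change of at least 0.58. Differences of stretch effects used 1 model over the 24 libraries of a stage or the 16 of a time. The scripts were tested on simulated counts. The members and all gene lists were chosen with earlier results of these data known.

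Values are named for members called, the 3 largest rises and falls past the adjusted p in each comparison, differences between times or stages, the largest stage differences, the highest and lowest levels, and the members next to the count minimum. Other members appear in their role groups. Exon lengths and positions are from GENCODE vM21 and promoters from RefSeq (GRCm38). Groups shared replicate numbers, but the deviations of same-numbered samples correlated above 0.1 in 6 of 23 pairs (−0.044 to 0.153) and in all pairs of 0 comparisons, so that numbers were not taken as pairs. Alternatives were RLE scaling, no filter on low counts, a minimum of 10 counts in every library, a mean of at least 100 counts, a model over all 24 libraries, experiment as a covariate, the replicate block, no Zbtb8os and each library left out.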

Additional observations from a re-analysis of the deposited data

Results flagged for a closer look

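Groups of 4 libraries were checked for called members and the 3 largest rises and falls past the adjusted p in each comparison. Other values named in the text were not checked. Of these 58 groups, 8 had 1 library whose gap to the nearest other, divided by the range, exceeded Dixon's 95% critical value. Chance gives about 1 in 20. They were, in CPM, Zbtb12 in non-stretched differentiated cells at 3 h (replicate 7, 14.3), Zbtb4 in non-stretched (replicate 9, 81.8) and stretched differentiated cells at 6 h (replicate 9, 77), Zbtb11 (replicate 8, 27.2), Zbtb2 (replicate 10, 16.1) and Zbtb40 (replicate 9, 18.2) in non-stretched differentiated cells at 6 h, Zbtb3 in non-stretched myoblasts at 3 h (replicate 8, 2.02) and Zbtb22 in non-stretched myoblasts at 6 h (replicate 7, 37.1).

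The test of the difference between times also set Zbtb26 apart at 3 h against 1 h (0.67 on the log2 scale in myoblasts and 0.62 in differentiated cells) and at 6 h against 1 h (0.85 and 0.91), Zbtb34 in myoblasts at 6 h against 1 h (0.69), and Zbtb40 at 6 h against 3 h (0.79 in myoblasts and 0.81 in differentiated cells) and, in differentiated cells, at 6 h against 1 h (0.65). The test of the difference between stages set apart Zbtb33 at 3 h (0.17), and Zbtb4 (−0.23), Zbtb7a (−0.16) and Zbtb7c (−0.23) at 6 h.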

How the results depend on the processing

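Alternatives were compared for 29 values, those of called members and of the 3 largest rises and falls past the adjusted p in each comparison. None of the 29 reversed its direction, and 25 stayed under an adjusted p of 0.05 in all 15 alternatives each. The exceptions were Zbtb3 in myoblasts at 3 h (adjusted p up to 0.111), Zbtb43 (0.14) and Zbtb2 (0.19) in differentiated cells at 1 h and Zbtb22 in differentiated cells at 3 h (0.0617). The smaller changes and the differences between stages were not among the 29. Several of those rose above 0.05 when a single library was left out, as given with their values.

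The count of members lower in differentiated cells at 1 h (2) was 6 with DESeq2, 4 with no filter, 4 with experiment as a covariate, 4 with the replicate block and 10 in the model of all 24 libraries, in which the counts of higher members were 3 in myoblasts and 2 in differentiated cells at 1 h (1 each otherwise). Shares of all genes were not counted under the alternatives, so a larger count there need not be particular to the members. The replicate block changed no other count past 1.5 times, but the adjusted p rose above 0.05 for Zbtb3 (0.0564) and Zbtb26 (0.0533) in myoblasts at 3 h, Zbtb42 in myoblasts at 6 h (0.0553) and Zbtb1 (0.0896) and Zbtb21 (0.107) in differentiated cells at 6 h. The members differing between stages were 2 with RLE scaling and 0 with no filter at 3 h (1), and 1 with no filter at 6 h (3).

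With single libraries left out, higher members ranged from 1 to 3 (myoblasts, 1 h), 6 to 13 (myoblasts, 6 h; 6 without non-stretched replicate 10 and 13 without stretched replicate 10) and 0 to 1 (differentiated, 1 h). Lower members ranged from 1 to 2 (myoblasts, 6 h) and 1 to 4 (differentiated, 1 h; 4 without stretched replicate 4). Members called up at 6 h ranged from 0 to 1 in each stage, since the log2 fold change of Zbtb40 reached 0.58 in myoblasts and 0.63 in differentiated cells. Without stretched replicate 8, Zbtb37 in myoblasts at 1 h reached −0.64, and 3 members in place of 2 were called down. Medians ranged from −0.09 to −0.056 (myoblasts, 1 h) and −0.013 to 0.018 (differentiated, 3 h), where the sign changed with single libraries and with no filter (−0.002; 0.001 with all libraries). Members whose effect differed between 3 h and 1 h in myoblasts ranged from 9 to 14, and those differing between stages from 0 to 2 at 3 h and 0 to 3 at 6 h. The cause of these changes was not tested.

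Depth did not limit most members, but Zbtb46 and Zbtb3 had as few as 14 and 81 counts in a library, and changes in them under the spread between libraries were not detectable.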
